A study of Mus musculus with 20 samples.

Results

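The genes described here are the digestive enzymes of the exocrine pancreas and the proteins that pack, secrete or regulate them in the acinar cell, read in bulk RNA sequencing (RNAseq) of mouse islets. The list holds 31 members of the 28632 genes in the count table, chosen by name: trypsinogens (*Prss1*, *Prss2*, *Prss3*, *Try4*, *Try5*, *Try10*), chymotrypsinogens (*Ctrb1*, *Ctrl*, *Ctrc*), elastases (*Cela1*, *Cela2a*, *Cela3a*, *Cela3b*), carboxypeptidases (*Cpa1*, *Cpb1*), lipid-digesting enzymes (*Pnlip*, *Pnliprp1*, *Pnliprp2*, *Clps*, *Cel*, *Pla2g1b*), an amylase (*Amy1*), granule and other secreted proteins (*Sycn*, *Zg16*, *Gp2*, *Rnase1*, *Cuzd1*, *Klk1*) and transcription factors (*Ptf1a*, *Rbpjl*, *Bhlha15*). The study removed the mitofusins, which fuse the outer membranes of mitochondria, from β-cells. Islets came from 12-week-old mice: 6 Ctrl libraries (3 female, 3 male), 4 with both *Mfn1* alleles floxed and Ins1-Cre (β-Mfn1KO, 3 female, 1 male), 5 with both *Mfn2* alleles floxed and Ins1-Cre (β-Mfn2KO, 2 female, 3 male) and 5 with both genes floxed and Ins1-Cre (β-Mfn1/2DKO, 2 female, 3 male). Ins1-Cre deletes in β-cells, so the other cells of an islet keep both genes, and the mice were on a C57BL/6N background. Controls are labelled wild type, and by the methods this group mixes littermates that carried Ins1-Cre without floxed alleles or the reverse. Islets were freed by collagenase digestion, enriched on a density gradient, picked by hand and cultured for a day.

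Acinar cells make up most of the pancreas and surround the islets. They translate digestive enzymes, mostly as inactive zymogens, load them into granules and release them into ducts that lead to the gut. A complex of Ptf1a, Rbpjl and an E-protein drives enzyme transcription, and Bhlha15 (Mist1) sets up the secretory machinery of granule-forming cells. Acinar cells are the main known source of most of these enzymes in the pancreas. Bulk RNAseq cannot tell fewer cells of a type from less RNA per cell.

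Libraries held 12400687 to 20329064 counts in Ctrl, 15745680 to 16685381 in β-Mfn1KO, 15110046 to 59533407 in β-Mfn2KO and 65533388 to 122947313 in β-Mfn1/2DKO. Levels are given in CPM, the count set against the TMM-scaled size of its library. *Mfn1* stood at 36.6 to 43.6 CPM in Ctrl and β-Mfn2KO and at 15.0 to 25.6 CPM in the groups that lost it. *Mfn2* stood at 74.6 to 111 CPM in Ctrl and β-Mfn1KO and at 35.6 to 51.5 CPM in the groups that lost it, so every library matched its label. A level of 3 counts corresponded to 0.0223 to 0.254 CPM, and 25 of the 31 members had counts in all 20 libraries.

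The members took up a small and very uneven share of the libraries, and 3 libraries stood far above the others. In Ctrl they held 0.0417% to 0.235% of the counts, with a median of 0.1201%. The shares were 0.0203%, 0.0438%, 0.0439% and 0.0811% in β-Mfn1KO, and 0.0686%, 0.218%, 0.0659%, 0.858% and 0.0879% in β-Mfn2KO. In β-Mfn1/2DKO they were 0.0653%, 0.106%, 0.0658%, 2.27% and 5.88%. Replicates 5 and 4 of β-Mfn1/2DKO and replicate 4 of β-Mfn2KO were thus the highest of the 20, and β-Mfn1/2DKO replicates 1 to 3 lay inside the range of Ctrl. The 95% Wilson interval of a share was narrow at every depth, from 0.0196% to 0.0210% in the lowest library and from 5.88% to 5.89% in the highest, and covers counting error only. *Ctrb1* alone took 17.7% to 31.7% of the members' counts in each library.

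**Figure D1:**
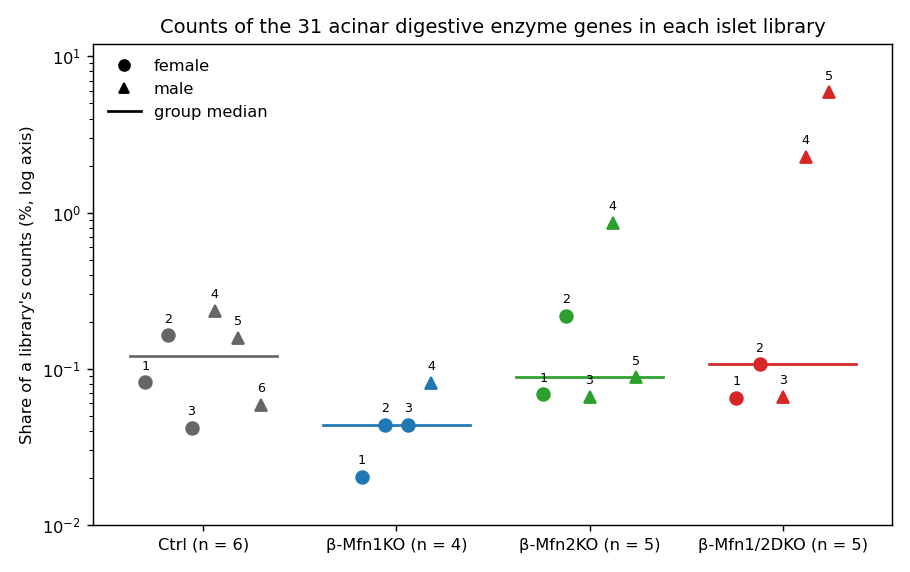
Share of each library's counts held by the 31 acinar digestive enzyme genes (y axis, percent, log scale) in the 4 genotypes (x axis); each point is a library with its replicate number, circles are female and triangles male, and bars are group medians. β-Mfn1/2DKO replicates 4 and 5 (2.27% and 5.88%) and β-Mfn2KO replicate 4 (0.858%) lie above the 17 others, which reach 0.235%.

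The acinar index, the median log2 CPM over the members, summarised each library. It ran from 1.64 to 5.04 in Ctrl (mean 3.49 ± 1.23 SD, n = 6) and from 0.38 to 3.15 in β-Mfn1KO (1.75 ± 1.13 SD, n = 4). It ran from 2.72 to 6.17 in β-Mfn2KO (3.96 ± 1.48 SD, n = 5) and from 2.51 to 8.95 in β-Mfn1/2DKO (5.16 ± 2.99 SD, n = 5). The groups overlapped, and the spread within β-Mfn1/2DKO was the widest of the 4. From the lowest to the highest library the index rose by 8.56 log2 units, a 378-fold range. The 3 highest libraries were all male and all deeper than any Ctrl library. Over both sexes the index was 2.61 ± 1.298 (SD, n = 10) in females and 4.74 ± 2.22 (SD, n = 10) in males. The β-Mfn1/2DKO females stood at 2.51 and 3.71, inside the 1.64 to 3.92 of the Ctrl females. The deepest library, β-Mfn1/2DKO replicate 1 with 122947313 counts, stood at 2.51.

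Among the trypsinogens, the zymogens that enteropeptidase activates in the gut, *Try5* had the highest mean level per transcript length, at 421 CPM per kb of transcript. Here and below, means per kb over the 20 libraries are raised by the few high libraries. The medians of *Try5* and *Ctrb1* were 56.2 and 251 CPM per kb. It ran from 21.4 to 159 CPM, with a median of 64.6 in Ctrl. It stood at 7.15, 14.7, 25.8 and 64.5 CPM in β-Mfn1KO and at 21.1, 122.6, 44.1, 547 and 45.9 CPM in β-Mfn2KO. In β-Mfn1/2DKO it stood at 42.7, 63.6, 42.1, 1393 and 3858 CPM, so that replicates 4 and 5 were high and the other 3 overlapped Ctrl. *Try4* and *Prss2* had means of 361 and 276 CPM per kb and the same high libraries, and *Try10* was low, with a mean of 2.41 CPM per kb.

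*Ctrb1*, the main chymotrypsinogen, was the highest member of all, at a mean of 1634 CPM per kb. It ran from 114 to 732 CPM, with a median of 331 in Ctrl. It was at 38.02, 94.5, 103 and 246 CPM in β-Mfn1KO, 195, 707, 192, 2531 and 231 CPM in β-Mfn2KO and 183, 264, 182, 6399.9 and 15160.4 CPM in β-Mfn1/2DKO. The same 3 libraries were on top as for the other enzymes. *Ctrl*, a chymotrypsin-like protease that shares its symbol with the name of the control group, had a mean of 87.1 CPM per kb. *Ctrc*, which degrades trypsin, had 0.966 CPM per kb. *Cela2a* overlaps *Ctrc* on the same strand, shares 15.7% of its 75-base stretches and had far more counts (means of 34000.5 and 65.6), so *Ctrc* is uncertain.

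*Cela1* led the elastases, serine proteases that cut after small residues, with a mean of 546 CPM per kb. It ran from 65.1 to 257 CPM, with a median of 162 in Ctrl. It stood at 28.9, 87.4, 58.8 and 96.7 CPM in β-Mfn1KO, 93.4, 294, 87.2, 1102 and 107 CPM in β-Mfn2KO and 97.4, 130.4, 82.7, 2367 and 6521 CPM in β-Mfn1/2DKO. *Cela2a* and *Cela3b* followed with 463 and 217 CPM per kb. *Cpa1*, which removes residues from the carboxyl end of peptides, led *Cpb1* with 133 against 47.0 CPM per kb. *Cpa1* ran from 10.9 to 88.6 CPM, with a median of 38.3 in Ctrl. It stood at 3.84, 11.1, 11.3 and 25.5 CPM in β-Mfn1KO, 22.3, 73.1, 20.6, 337 and 29.5 CPM in β-Mfn2KO and 16.3, 31.4, 16.6, 787 and 2565 CPM in β-Mfn1/2DKO. The β-Mfn1KO libraries were low for both families, yet none of these genes had all β-Mfn1KO libraries below all Ctrl libraries (0.465% of all genes did).

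*Pnlip*, pancreatic triglyceride lipase, led the lipid-digesting enzymes at a mean of 213 CPM per kb. It ran from 16.1 to 128 CPM, with a median of 66.1 in Ctrl. It stood at 4.45, 22.3, 19.9 and 47.2 CPM in β-Mfn1KO, 46.9, 103, 24.5, 589 and 38.7 CPM in β-Mfn2KO and 22.5, 53.7, 23.4, 1369.7 and 3579 CPM in β-Mfn1/2DKO. *Cel*, the bile salt-activated lipase, had 98.0 CPM per kb, the lipase-related *Pnliprp1* 81.5 and *Clps*, the cofactor colipase, 67.5. *Pnliprp2* had 21.0 and the phospholipase *Pla2g1b* 10.95 CPM per kb. *Klk1*, a tissue kallikrein, led the other secreted proteins with 74.1 CPM per kb. It ran from 4.55 to 46.3 CPM, with a median of 17.4 in Ctrl. It stood at 1.08, 5.31, 5.58 and 12.9 CPM in β-Mfn1KO, 6.81, 27.1, 10.1, 149.8 and 11.6 CPM in β-Mfn2KO and 8.88, 13.1, 9.27, 293 and 741 CPM in β-Mfn1/2DKO. *Sycn*, a zymogen granule protein, had 45.8 CPM per kb, and *Zg16*, the granule membrane protein *Gp2*, the ribonuclease *Rnase1* and *Cuzd1* had 20.9, 20.6, 11.1 and 1.79. The gene *Samd4b* overlaps *Sycn* on the opposite strand with more counts (means of 4851 and 1689), and whether reads were counted by strand is not given in the sources used here, so *Sycn* is uncertain.

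**Figure D2:**
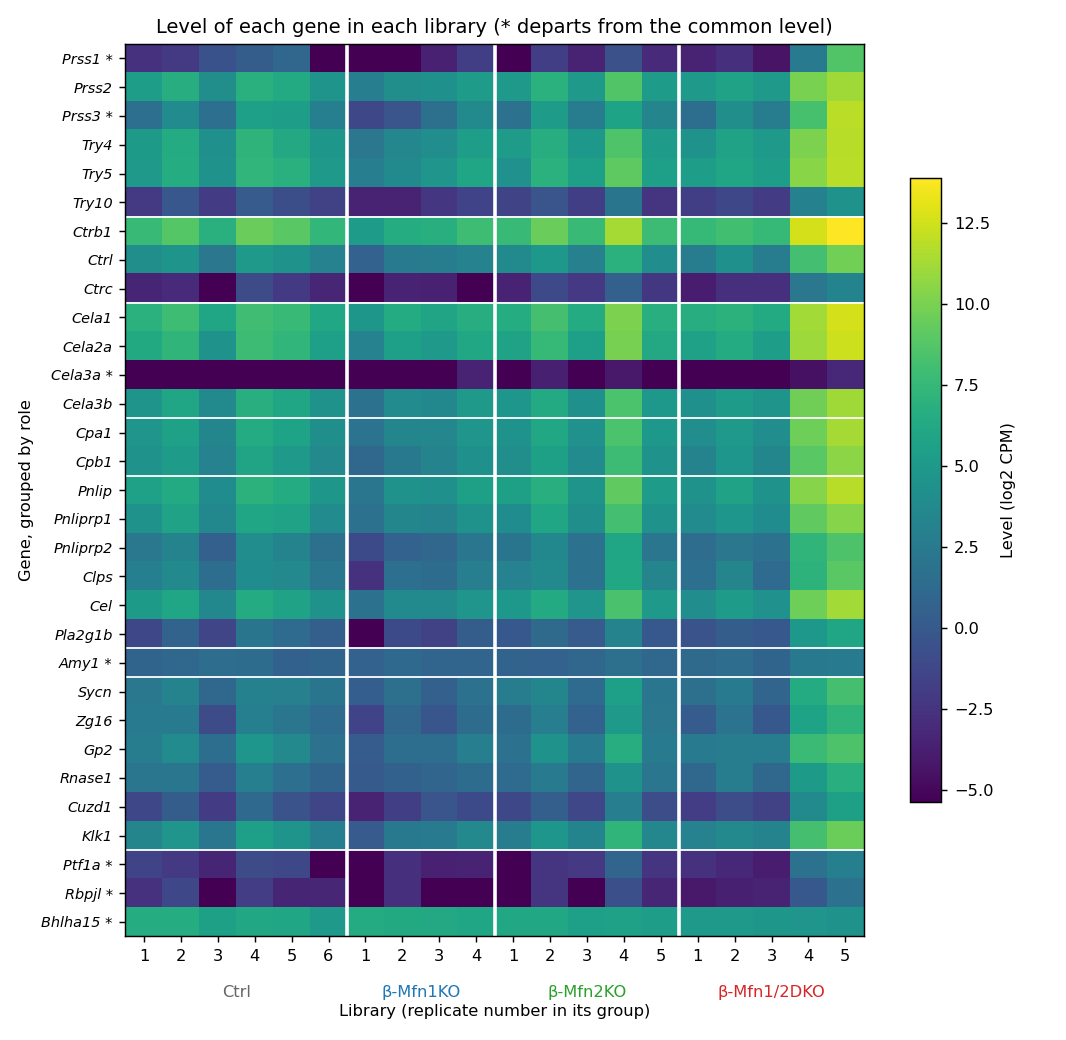
Level of each of the 31 members (rows, grouped by role) in each of the 20 libraries (columns, by genotype and replicate number) as log2 CPM in colour. Most rows brighten and dim together, brightest in β-Mfn1/2DKO replicates 4 and 5 and β-Mfn2KO replicate 4, while *Amy1* and *Bhlha15* stay nearly flat and *Cela3a* stays near 0 counts.

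Most members rose and fell as a block. Each member was set against the median of the other 30, its common level, and departed from it if the SD over the 20 libraries of its log2 difference exceeded 1 or if its slope on the common level was under 0.5. By this description 24 members followed the common level and 7 departed. The SD of the 24 ran from 0.24 (*Ctrb1*) to 0.82 (*Ctrc*), with a median of 0.40, against an SD of 2.08 for the index itself. Their slopes ran from 0.79 (*Rnase1*) to 1.11 (*Pla2g1b*), with a median of 1.04, so they changed nearly in proportion. *Prss2* (SD 0.25), *Cela3b* (0.25), *Cel* (0.27) and *Pnliprp1* (0.28) came next to *Ctrb1*. Of the 24, *Ctrc*, *Clps* (0.74) and *Pla2g1b* (0.71) were the loosest. The largest shortfall of each of the 3 fell in a β-Mfn1KO library in which it had 0 to 2 counts. Libraries shared by all members and their depth enter each of these values, which are descriptions.

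The shares of the highest members on the common level varied far less than the 378-fold range of the index. Of the members' summed CPM per kb, *Ctrb1* took 27.3% to 36.9% in every library, 29.7% in β-Mfn1/2DKO replicate 5 and 28.8% in β-Mfn1KO replicate 1, the libraries of the highest and the lowest index. *Prss2* took 4.76% to 7.40% and *Try4* 3.66% to 7.57%. *Cela1* took 9.54% to 20.01%, *Cela2a* 5.32% to 10.7% and *Try5* 3.96% to 9.79%, wider than *Ctrb1* as a ratio of highest to lowest. Some departing members varied far more, such as *Bhlha15* (0.0115% to 17.1%), *Amy1* (0.00501% to 0.542%) and *Prss3* (0.246% to 7.79%). Between the 2 highest libraries, β-Mfn1/2DKO replicate 5 over replicate 4, the 24 members rose by 1.65-fold (*Gp2*) to 3.70-fold (*Clps*), with a median of 2.66-fold.

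The promoters of 26 of the 31 members were matched by symbol in a RefSeq table on GRCm38.p6, giving 27 sequences (*Amy1* has 2), and *Try5*, *Try10*, *Ctrc*, *Clps* and *Zg16* were not matched. Only the 250 bases before the start were searched. *Ctrb1* is the highest member and *Prss2* a trypsinogen that followed the common level. *Prss1* is a trypsinogen that left it, and *Bhlha15* the transcription factor with a negative slope on it. The sequences of these 4 genes are shown. Each runs 5′ to 3′ towards the start of its gene, with these motifs in capitals: CACCTG or its reverse complement CAGGTG, an E-box; TTTCCCA or TGGGAAA, letters that the DNA-binding Rbpj family reads; AAGGTCA or TGACCTT, a half-site of nuclear receptors; and TATAAA on the gene's own strand. TTTCCCA and CACCTG can share their CA.
Ctrb1, chr8:111691011-111691260, minus strand: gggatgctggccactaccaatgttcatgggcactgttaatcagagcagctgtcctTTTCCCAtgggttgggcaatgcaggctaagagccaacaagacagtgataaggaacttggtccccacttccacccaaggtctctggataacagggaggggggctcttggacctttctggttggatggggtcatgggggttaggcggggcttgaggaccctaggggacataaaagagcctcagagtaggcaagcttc
Prss2, chr6:41521526-41521775, plus strand: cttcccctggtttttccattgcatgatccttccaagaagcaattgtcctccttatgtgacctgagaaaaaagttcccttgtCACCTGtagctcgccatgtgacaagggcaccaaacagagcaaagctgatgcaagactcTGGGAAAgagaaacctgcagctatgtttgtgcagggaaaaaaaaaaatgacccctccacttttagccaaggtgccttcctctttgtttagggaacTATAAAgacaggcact
Prss1, chr6:41458680-41458929, plus strand: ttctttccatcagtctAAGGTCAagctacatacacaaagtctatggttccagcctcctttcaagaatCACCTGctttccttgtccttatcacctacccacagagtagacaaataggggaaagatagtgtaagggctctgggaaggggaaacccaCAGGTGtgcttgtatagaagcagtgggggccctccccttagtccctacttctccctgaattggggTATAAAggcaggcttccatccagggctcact
Bhlha15, chr5:144190036-144190285, plus strand: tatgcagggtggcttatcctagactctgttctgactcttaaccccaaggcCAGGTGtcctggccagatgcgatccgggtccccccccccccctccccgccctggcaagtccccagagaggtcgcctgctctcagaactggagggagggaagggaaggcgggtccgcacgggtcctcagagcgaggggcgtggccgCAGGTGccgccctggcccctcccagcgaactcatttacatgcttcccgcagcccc

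CACCTG was found in 15 of the 27 member promoters (55.6%) and in 17.2% of all 32851 promoters in the table. TTTCCCA was found in 6 (22.2%, against 6.82% of all), AAGGTCA in 4 (14.8%, against 4.08%) and TATAAA in 8 (29.6%, against 7.59%). *Cel*, *Cela3a*, *Cela2a* and *Prss2* held both CACCTG and TTTCCCA (14.8%, against 1.17%). The promoter of *Prss1* held CACCTG at 2 places and that of *Bhlha15* also at 2, so these letters were found in members that departed as well as in those that did not. A match is a description of letters in this window and no test was made.

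The departing trypsinogens, *Prss1* and *Prss3*, left the common level mainly in β-Mfn1/2DKO replicate 5. *Prss1* ran from 0 to 1.97 CPM, with a median of 0.432 in Ctrl. It was at 0, 0, 0.0600 and 0.268 CPM in β-Mfn1KO and 0, 0.270, 0.0650, 0.641 and 0.0957 CPM in β-Mfn2KO. In β-Mfn1/2DKO it was at 0.0668, 0.134, 0.0256, 5.53 and 402 CPM, a step of 72.8-fold between replicates 4 and 5, where *Prss2* stepped by 2.20-fold. *Prss3* ran from 3.08 to 46.0 CPM, with a median of 11.4 in Ctrl. It stood at 0.404, 0.797, 3.24 and 13.5 CPM in β-Mfn1KO and 3.54, 37.8, 6.57, 54.8 and 10.3 CPM in β-Mfn2KO. In β-Mfn1/2DKO it stood at 2.98, 17.7, 7.04, 309.9 and 3728 CPM, a step of 12.0-fold between replicates 4 and 5. As a ratio of counts to *Prss2*, *Prss3* reached 1.65 in β-Mfn1/2DKO replicate 5 and at most 0.485 in the other 19 libraries, and *Prss1* reached 0.178 and at most 0.0373. In β-Mfn1/2DKO replicate 5 the trypsinogen make-up thus differed from that of every other library.

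Both genes lie in the trypsinogen cluster, *Prss1* at chr6:41458932-41463786 on the plus strand and *Prss3* at chr6:41373814-41377678 on the minus strand (GRCm38), and share sequence with close copies. Of the 75-base stretches of the *Prss1* transcript, 37.1% occur in another gene, most of them in *Gm5771*, and of *Prss3* 53.9%, in *Gm10334*. *Gm5771* stood at 1241 CPM and *Gm10334* at 763 CPM in β-Mfn1/2DKO replicate 5, against at most 69.1 and 14.1 CPM in the other libraries, so these copies were high there too. How the counting divided reads among the copies was not tested, and single values of *Prss1*, *Prss3*, *Try4* (43.9% shared), *Try5* (33.3%) and *Try10* (24.7%) are uncertain for this reason. Without β-Mfn1/2DKO replicate 5, *Prss1* still departed and *Prss3* no longer did.

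*Bhlha15* did not follow the common level: its slope was -0.14 and its SD 2.55, the widest of all members. All 5 β-Mfn1/2DKO libraries were low for it whatever their index, so this slope mixes index and genotype. It ran from 33.2 to 92.8 CPM, with a median of 68.1 in Ctrl. It stood at 90.0, 81.2, 76.3 and 63.1 CPM in β-Mfn1KO and 73.0, 72.7, 45.8, 50.5 and 43.5 CPM in β-Mfn2KO. In β-Mfn1/2DKO it stood at 30.6, 30.99, 28.0, 25.8 and 23.5 CPM, below every library of the other 3 groups. The library with the lowest index, β-Mfn1KO replicate 1, was among the 3 highest for *Bhlha15*, and the library with the highest index, β-Mfn1/2DKO replicate 5, was the lowest. *Bhlha15* took 17.1% of the members' summed CPM per kb in the former and 0.0115% in the latter. No annotated gene overlaps it (chr5:144190286-144194441, plus strand, GRCm38), and none of its 75-base stretches occurs in another transcript.

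*Amy1*, the amylase best known from the salivary gland and liver, hardly moved, with a slope of 0.19. It ran from 1.48 to 2.79 CPM, with a median of 1.90 in Ctrl. It was at 1.62, 2.32, 1.86 and 1.87 CPM in β-Mfn1KO, 1.70, 1.62, 1.95, 3.33 and 2.18 CPM in β-Mfn2KO and 2.40, 2.81, 1.78, 5.21 and 5.79 CPM in β-Mfn1/2DKO. The 3 libraries of highest index were again the highest, but by a few CPM. *Amy1* shares 31.3% of its 75-base stretches with *Rnpc3*, a splicing factor gene that overlaps it on the same strand and stood at 13.2 to 18.6 CPM, so part of its counts may belong to *Rnpc3*, which was not tested.

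The other 3 departing members rested on few counts. *Ptf1a* ran from 0 to 0.508 CPM, with a median of 0.278 in Ctrl. It was at 0, 0.133, 0.0600 and 0.0669 CPM in β-Mfn1KO, 0, 0.162, 0.195, 1.89 and 0.159 CPM in β-Mfn2KO and 0.141, 0.0891, 0.0426, 3.49 and 7.63 CPM in β-Mfn1/2DKO. Its slope of 0.95 was that of the enzymes, and its SD of 1.04 came with 3 libraries at 0 counts. *Rbpjl*, its partner, ran from 0 to 0.409 CPM, with a median of 0.108 in Ctrl. It was at 0, 0.133, 0 and 0 CPM in β-Mfn1KO, 0, 0.162, 0, 0.604 and 0.0797 CPM in β-Mfn2KO and 0.0371, 0.0557, 0.0682, 0.909 and 3.63 CPM in β-Mfn1/2DKO, with 6 libraries at 0 counts, a slope of 0.85 and an SD of 1.05. Both factors were highest in the 3 libraries of highest index. *Cela3a* had 12 counts in all 20 libraries together and was at 0 counts in 15 of them, with at most 0.0903 CPM. It therefore has no measurable trend, while its neighbour *Cela3b* was among the tightest members. The member closest to the limit on the other side was *Ctrc*, at an SD of 0.82.

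**Figure D3:**
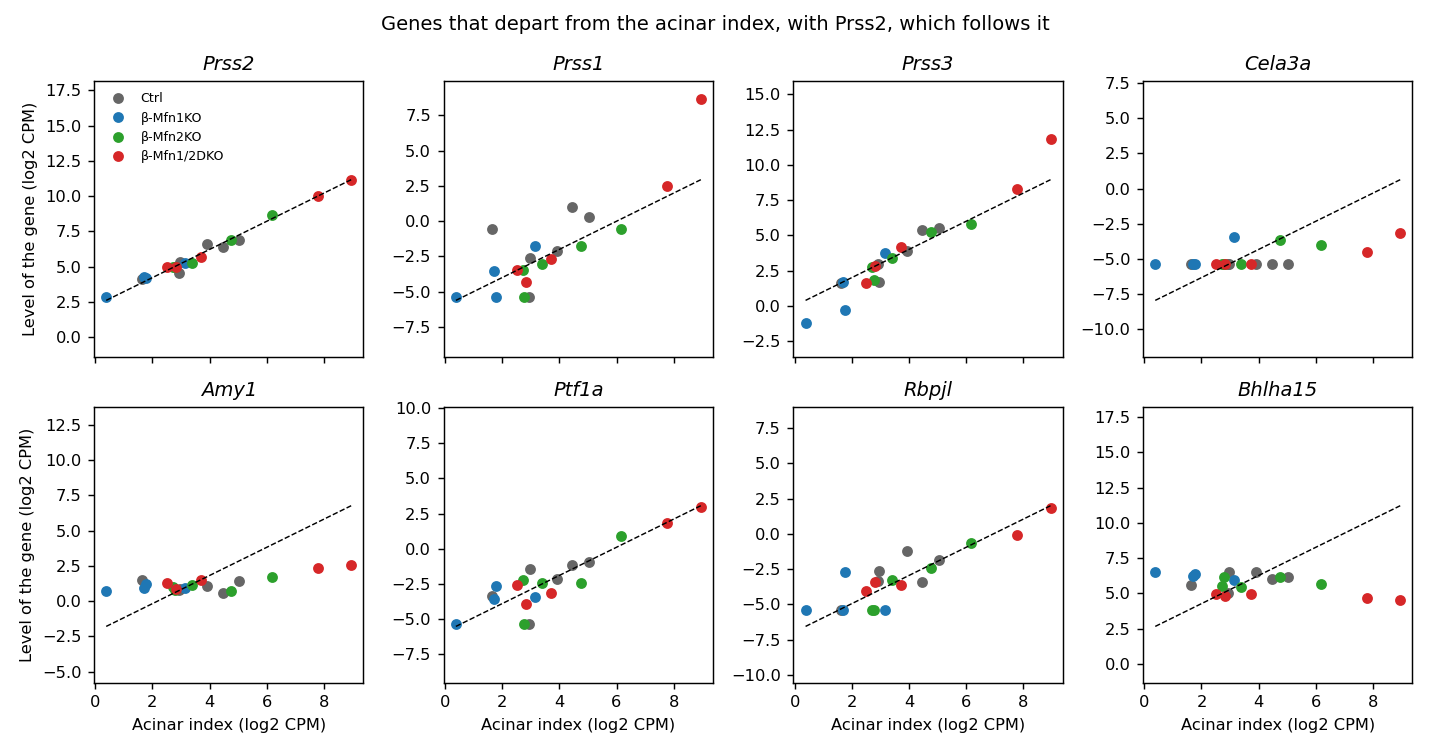
Level of *Prss2* and of the 7 departing members (y axis, log2 CPM) against the acinar index (x axis, log2 CPM), 1 point per library coloured by genotype; the dashed line is a change in proportion to the index through the median difference. *Prss2* lies on the line, *Prss1* and *Prss3* rise above it in β-Mfn1/2DKO replicate 5, *Amy1* and *Bhlha15* are flat or falling, and *Cela3a*, *Ptf1a* and *Rbpjl* meet the floor of their counts.

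Whether losing both mitofusins in β-cells changed these genes was asked by comparing β-Mfn1/2DKO with Ctrl. Calls required a fold change over 1.5 and, by the quasi-likelihood test of edgeR with Benjamini-Hochberg adjustment over all genes, an adjusted p under 0.05. Of the 31 members 27 were called higher and 1 lower, where 3.24% of all genes were called higher and 1.97% lower. The median log2 fold change of the members was 3.64, against 0.04 over the genes kept by filterByExpr, and that of the 24 members on the common level ran from 3.01 to 4.26. *Ctrb1* changed by 3.62 ± 0.999 (log2, SE, edgeR adjusted p = 0.0139), *Cpa1* by 4.04 ± 1.09 (adjusted p = 0.0117) and *Pnlip* by 3.95 ± 1.11 (adjusted p = 0.0152). *Prss1* had the largest value, 6.93 ± 1.76 (adjusted p = 0.00766), and *Amy1* the smallest of those called higher, 0.80 ± 0.27 (adjusted p = 0.0497). *Cela3a* (2.84, adjusted p = 0.437), *Ptf1a* (3.13, adjusted p = 0.0664) and *Rbpjl* (2.44, adjusted p = 0.147) were not called.

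These higher calls rested on β-Mfn1/2DKO replicates 4 and 5. With every library drawn down to the smallest total, 27 members were again called higher, where 759 of 28632 genes were. For no member did all 5 β-Mfn1/2DKO libraries lie above all 6 Ctrl libraries, where 6.56% of all genes did. Without replicate 5, no member was called higher (2.33% of all genes) and the median log2 fold change was 2.15. In that fit 26 members had an unadjusted p under 0.05 (lower calls included). Most members move together by library, so counts of unadjusted p, here and below, are not separate observations. The share of all genes at that p is not given here or below, so these counts have no background to be read against. Without replicate 4, 24 were called higher (2.63% of all genes). Without both, a choice made after seeing the data, no member was called higher, where 1.96% of all genes were, the median was -0.86 and 29 of 31 had a negative log2 fold change. *Cela3a* had 0 counts in all libraries of that comparison. In that fit *Prss1* was called lower (log2 fold change -3.14, adjusted p = 0.0398), on 3, 9 and 12 counts in the β-Mfn1/2DKO libraries left. With sex in the fit, 7 members were called higher (*Ctrb1*, *Rnase1*, *Try5*, *Cpa1*, *Ctrc*, *Prss1*, *Prss3*), where 2.94% of all genes were, with a median of 2.76. With replicate number in the fit, 3 members were called higher, where 998 of 28632 genes were, with a median of 1.90. The labels do not say what that number marks.

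*Bhlha15* was the member called lower, and all 5 β-Mfn1/2DKO libraries lay below all 6 Ctrl libraries, which held for 4.04% of genes. Its log2 fold change was -1.27 ± 0.20 (SE, edgeR adjusted p = 9.85e-05), and -1.15 ± 0.23 (adjusted p = 0.00188) without β-Mfn1/2DKO replicates 4 and 5. It was also lower than in β-Mfn2KO (-1.03 ± 0.21, adjusted p = 0.00145) and β-Mfn1KO (-1.48 ± 0.22, adjusted p = 3.73e-05), without overlap of the libraries. Calls of lower level took in 1.79% and 2.67% of all genes in those comparisons, and groups without overlap 5.26% and 7.37%. Against Ctrl, *Bhlha15* was not called in β-Mfn2KO (-0.24 ± 0.20, edgeR adjusted p = 0.929) or β-Mfn1KO (0.21 ± 0.21, adjusted p = 0.784).

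**Figure D4:**
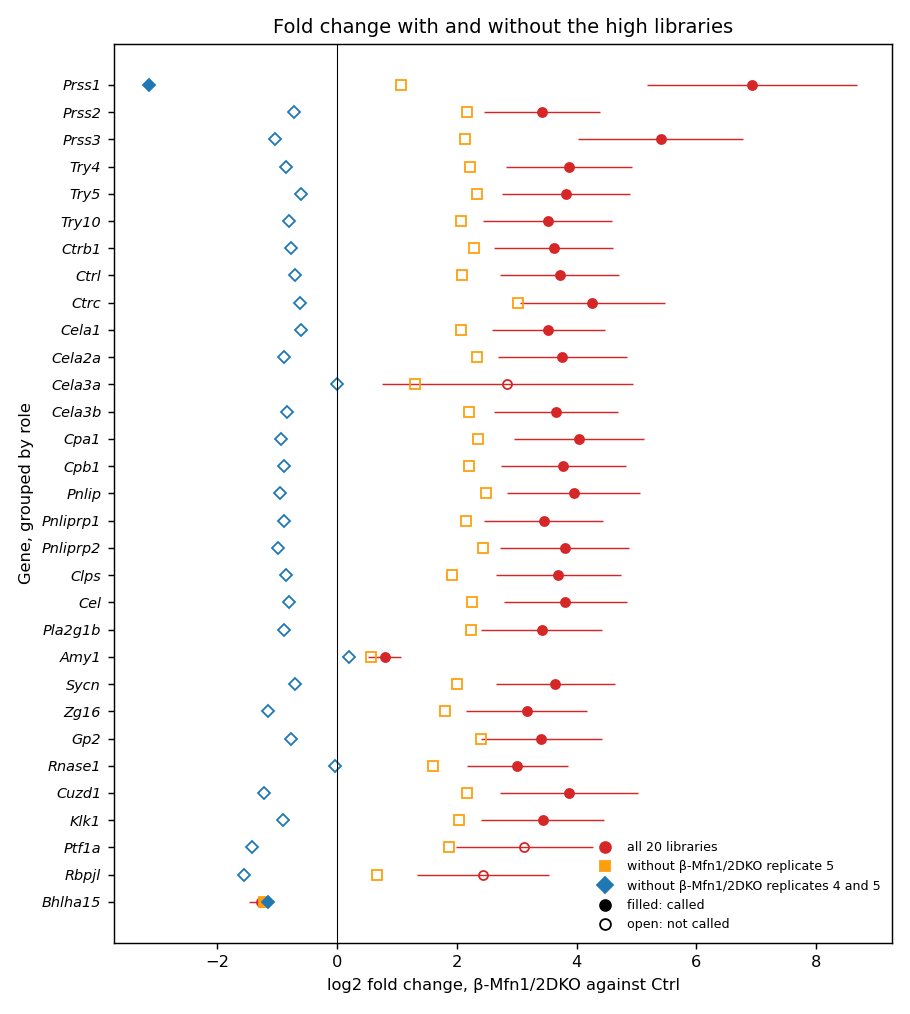
log2 fold change of each member (rows, by role) in β-Mfn1/2DKO against Ctrl from edgeR, with all 20 libraries (circles, bars are ± 1 SE), without β-Mfn1/2DKO replicate 5 (squares) and without replicates 4 and 5 (diamonds); filled symbols were called. Most members move from a median of 3.64 to 2.15 and then to -0.86, while *Bhlha15* stays between -1.27 and -1.15.

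The single knockouts gave no calls. In β-Mfn2KO against Ctrl, edgeR called 0 of 31 members (0.0524% of all genes), 0 had an unadjusted p under 0.05, and DESeq2 also called 0. The median log2 fold change was 1.13, and -0.26 without β-Mfn2KO replicate 4, the high library of that group. In β-Mfn1KO against Ctrl, edgeR called 0 of 31 (0.0244% of all genes), again with 0 at an unadjusted p under 0.05 and 0 in DESeq2. With the spread taken from those 2 groups only, 25 members had an unadjusted p under 0.05. The count was again 25 with the 3 libraries of highest index left out, and 13 with β-Mfn1/2DKO replicates 4 and 5 left out. Yet 0 were called in each, and since most members move together these counts are not separate observations. The median was -1.64, and 2 members had a positive value. *Ctrb1* stood at -1.59 ± 1.05 (log2, SE, edgeR adjusted p = 0.737) there. These comparisons share the Ctrl libraries.

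The count in β-Mfn1/2DKO against β-Mfn2KO moved with single libraries. With all libraries *Prss1* (8.18 ± 1.98, edgeR adjusted p = 0.00681) and *Prss3* (5.14 ± 1.45, adjusted p = 0.0201) were called higher and *Bhlha15* lower, where 2.05% of all genes were called higher. Without β-Mfn2KO replicate 4, 26 members were called higher (2.02% of all genes), and the median log2 fold change went from 2.51 to 3.83. Without β-Mfn1/2DKO replicate 5 none was (1.7% of all genes). Without β-Mfn1/2DKO replicate 1, 2 or 3, 8, 4 or 9 were, where 691, 693 or 763 of 28632 genes were. Without β-Mfn1/2DKO replicates 4 and 5 none was called higher, the median was -1.98 and 30 of 31 members had a negative value, 26 of all members having an unadjusted p under 0.05. β-Mfn1/2DKO against β-Mfn1KO called 28 members higher (4.04% of all genes), with a median of 5.25. *Rbpjl* and *Cela3a* were not called. With β-Mfn1/2DKO replicates 4 and 5 left out, none was called higher (2.51% of all genes) and the median was 0.77.

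Some other genes of acinar cells followed the members, and some did not. Of 22 listed genes outside the members, 12 were called higher in β-Mfn1/2DKO against Ctrl and none lower, with a median log2 fold change of 3.27. *Amy2a2*, *Amy2a3* and *Amy2a4* held identical counts in every library, and with these taken once 10 of 20 genes were called higher, with a median of 3.05. *Serpini2*, a pancreatic serpin, had the largest value of those called (4.14 ± 1.258, edgeR adjusted p = 0.0250) at low levels, up to 3.36 CPM in β-Mfn1/2DKO replicate 5. *Fam129a*, which is also active outside acinar cells, had the smallest (1.41 ± 0.23, adjusted p = 0.00011), and it was the 1 gene of the list still called with β-Mfn1/2DKO replicates 4 and 5 left out (1.38, adjusted p = 0.000693). *Fam129a* stood at 111 to 133 CPM over the β-Mfn1/2DKO libraries, whatever their index. *Chrm3* and *Slc38a5* did not follow the members, at 28.0 to 37.8 and 5.49 to 19.1 CPM over all libraries. *Chrm3* changed by -0.32 ± 0.06 (log2, SE, edgeR adjusted p = 0.000615) and was not called. The pancreatic amylase *Amy2a5* went from a lowest level of 39.4 CPM in β-Mfn1KO replicate 1 to 16255 CPM in β-Mfn1/2DKO replicate 5. Of 7 Reg family genes, secreted lectins of the stressed exocrine pancreas, *Reg1* was called (3.53 ± 0.97, adjusted p = 0.0136). With β-Mfn1/2DKO replicates 4 and 5 left out, none of the 7 was called.

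Among 12173 genes outside every list whose normalized counts averaged 100 or more, 9 kept within an SD of 1 of the index. The closest were *2210010C04Rik* (SD 0.31), *Amy2a1* (0.39), *Serpinb1a*, a protease inhibitor (0.57), the epithelial integrin *Itgb4* (0.60), the motor *Myo5c* (0.60), *Tspan1* (0.69), the laminin chain *Lamb3* (0.90), *Clu* (0.96) and the small heat shock protein *Hspb1* (0.97), with *Tead2* next at 1.10. *Clu* ran from 149 to 4055 CPM and *2210010C04Rik* from 3.24 to 1129 CPM. SDs were taken over 20 libraries that all these genes share. A gene could pass the limit on its mean count through the high libraries alone. *Lamb3*, *Tspan1* and *Myo5c* had medians of 0.607, 0.615 and 0.789 CPM, against 20.9, 33.6 and 28.0 CPM in their highest library. A high level there both passes the limit and brings a gene closer to the index, so these SDs are descriptions.

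Markers of other cells moved less, and their part in the members' differences was not tested. The 13 duct genes summed to 1180 to 1578 CPM in the 17 libraries of lower index and to 1684, 2594 and 3801 CPM in β-Mfn2KO replicate 4 and β-Mfn1/2DKO replicates 4 and 5. Of them *Krt19* (2.94), *Krt18* (1.27) and *Krt8* (1.41, log2 fold changes) were called higher in β-Mfn1/2DKO against Ctrl, and none without β-Mfn1/2DKO replicates 4 and 5. The duct-defining *Sox9* (0.55) and *Cftr* (0.31) were not called. The 10 fibroblast and stellate genes summed to 29.0, 117 and 60.5 CPM in those 3 libraries and to 25.2 to 382 CPM in the others, and 1 of them, *Pdgfrb*, was called higher. The 10 macrophage and lymphocyte genes summed to 84.6, 183 and 79.5 CPM, inside the 75.5 to 864 CPM of the others, with none called. The 10 endothelial genes summed to 277, 470 and 426 CPM against 214 to 360 CPM, and 7 were called higher, and 3 without β-Mfn1/2DKO replicates 4 and 5. The 12 β-cell genes summed to 65386 to 88619 CPM in β-Mfn1/2DKO and to 144072 to 234726 CPM in all other libraries, and 9 were called lower (7 without β-Mfn1/2DKO replicates 4 and 5). The 10 α-, δ- and PP-cell genes summed to 24342 to 60466 CPM over all libraries, with none called.

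**Figure D5:**
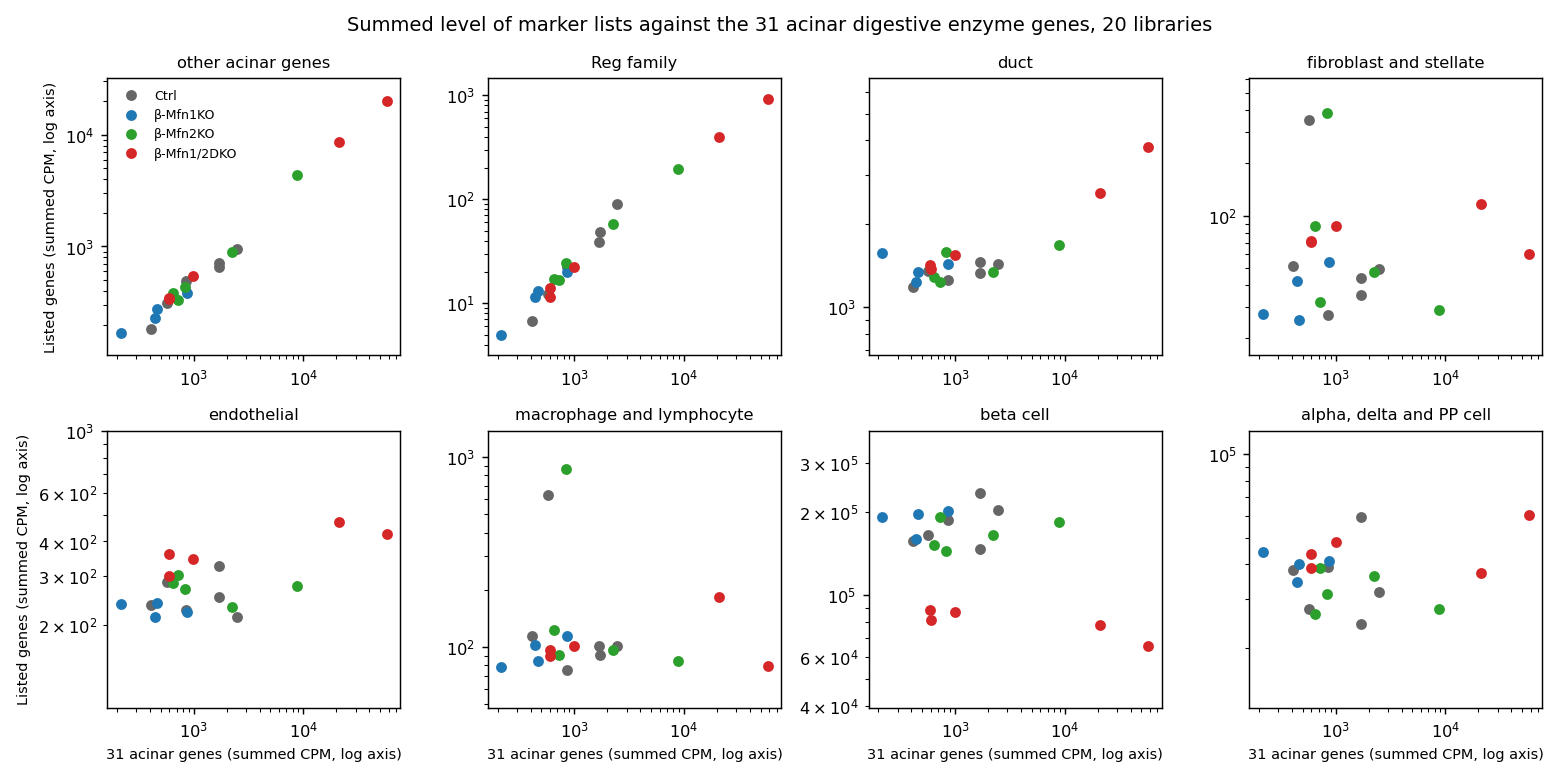
Summed CPM of each marker list (y axes, log scale) against that of the 31 members (x axis, log scale), 1 point per library coloured by genotype. The other acinar and Reg family genes rise along with the members, duct genes rise in the 3 highest libraries, and the fibroblast and immune lists peak in β-Mfn2KO replicate 5, which is not among those 3.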

How the data were processed

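Islet RNAseq libraries of 4 genotypes (20 in all) were compared. Per the methods and the submitters' processing notes, paired 151-base reads were handled with cutadapt 2.3, FastQC 0.11.8, STAR 2.6.1b (GRCm38) and RSEM 1.3.1, and the authors removed genes at 0 throughout. The deposited counts per gene, RSEM estimates held as whole numbers, were used as given. A second deposited table, divided by DESeq2 1.26.0 factors, was not used. Whether the counting used strand is not given in the sources used here. Of 28632 genes, 71 had no symbol.

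Counts were TMM-scaled and fitted over all 20 libraries with edgeR 4.0.16 (quasi-likelihood, no low-count filter, 1 term per genotype, R 4.3.3), with Benjamini-Hochberg adjustment over all genes. DESeq2 1.42.0 was an alternative. log2 CPM used a prior count of 1. Per-kb levels used transcript lengths. Sequence sharing was counted in stretches of 75 bases. Simulated on Mfn1/2DKO against Ctrl, edgeR recovered 193 of 200 genes changed by 1.5 on the log2 scale, and called 3 of the rest of 22302. Genes were drawn independently, with no set raised together in single libraries, so the simulation does not bear on the members' calls. Python 3.11.15 and Matplotlib 3.10.9 were used.

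The members and lists were chosen with earlier results of these data known. Values in every library are given for departing members and for the highest member of each role per length; of the other acinar genes the called ones of largest and smallest change are named, and outside all lists the 10 closest to the index. *Amy2a5*, *Chrm3*, *Slc38a5*, *Reg1*, *Gm5771*, *Gm10334*, *Rnpc3*, *Samd4b* and the duct and fibroblast genes were named after their values were seen. Where libraries of a genotype are not separate animals, p-values measure technical spread only.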

Additional observations from a re-analysis of the deposited data

Results flagged for a closer look

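In 59 sets of libraries of 1 genotype and 1 measure, 15 had a library whose gap to the nearest other was large against the range of its group. The limit is set for about 1 in 20 among normally spread values. These sets hold unlogged CPM or shares, and some have counts in only 1 library, so no chance rate is given for them. The measures are not independent, since most members move together and share the libraries. β-Mfn2KO replicate 4 stood above the other 4 libraries of its group in the members' share, at 0.858% against at most 0.218%. It did so in *Try5* (547 CPM), *Ctrb1* (2531 CPM), *Cela1* (1102 CPM), *Cpa1* (337 CPM), *Pnlip* (589 CPM), *Klk1* (149.8 CPM), *Ptf1a* (1.89 CPM) and *Rbpjl* (0.604 CPM) too.

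β-Mfn1/2DKO replicate 5 stood apart within its group in *Prss1* (402 CPM, against at most 5.53), *Prss3* (3728 CPM, against at most 309.9), *Rbpjl* (3.63 CPM, against at most 0.909) and *Cela3a* (0.0903 CPM, against at most 0.0189). For the other enzymes of this group β-Mfn1/2DKO replicate 4 was high as well, so that no single library stood apart. In β-Mfn1KO, *Cela3a* in replicate 4 (0.0669 CPM) and *Rbpjl* in replicate 2 (0.133 CPM) were the 1 library of the group with any count.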

How the results depend on the processing

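Of the 31 members, 28 (27 higher, 1 lower) were called in β-Mfn1/2DKO against Ctrl, and 26 or more under DESeq2, other scalings, thinned counts and filterByExpr, 22 with those 2 groups only. With sex as a covariate 8 were called, and with replicate number in the fit 4 were. Of 28632 genes, 837 were called higher and 496 lower with those 2 groups only. With sex 841 and 515 were, and with replicate number 998 and 550. With β-Mfn1/2DKO replicates 4 and 5 left out, or with β-Mfn2KO replicate 4 left out as well, 2 were called, both lower. Leaving out 1 library at a time gave 1 (without β-Mfn1/2DKO replicate 5) to 29 called, and the call of *Bhlha15* remained. Total counts moved the median log2 fold change of all kept genes to 0.17, from 0.04. They moved the share of all calls that were higher to 79.6%, from 62.2%. In β-Mfn1/2DKO against β-Mfn2KO 3 members were called, against 10 in DESeq2, 5 with total counts and 1 with those 2 groups only, and 1 to 27 leaving out 1 library (27 without β-Mfn2KO replicate 4, 9, 5 and 10 without β-Mfn1/2DKO replicates 1, 2 and 3). With β-Mfn1/2DKO replicates 4 and 5, or all 3 high libraries, left out, 1 was called there and 1 in β-Mfn1/2DKO against β-Mfn1KO, where 29 were called and 23 to 30 leaving out 1 library. β-Mfn2KO and β-Mfn1KO against Ctrl gave 0 throughout. In β-Mfn1/2DKO against β-Mfn2KO, DESeq2 called 654 of 28632 genes higher and 591 lower. Total counts gave 969 and 397 there, and those 2 groups only gave 578 and 470.

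Without β-Mfn1/2DKO replicates 4 and 5, the log2 fold change against Ctrl turned negative for 28 members: *Prss1* -3.14, *Prss2* -0.72, *Prss3* -1.04, *Try4* -0.85, *Try5* -0.60, *Try10* -0.81, *Ctrb1* -0.76, *Ctrl* -0.71, *Ctrc* -0.62, *Cela1* -0.60, *Cela2a* -0.89, *Cela3b* -0.83, *Cpa1* -0.93, *Cpb1* -0.88, *Pnlip* -0.95, *Pnliprp1* -0.88, *Pnliprp2* -0.99, *Clps* -0.86, *Cel* -0.80, *Pla2g1b* -0.88, *Sycn* -0.71, *Zg16* -1.15, *Gp2* -0.77, *Rnase1* -0.0315, *Ptf1a* -1.42, *Rbpjl* -1.56, *Cuzd1* -1.22 and *Klk1* -0.90. Leaving those libraries out was chosen after seeing the data, and what set them apart was not tested.

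The labels do not say what a replicate number marks. Same-numbered Ctrl and β-Mfn1/2DKO libraries had correlations of their deviations of -0.0957 to 0.380, over 0.1 in 3 of 5 pairs, and 17 of 27 pairs over all groups exceeded 0.1 (mean 0.141, against -0.0308 for other numbers), as did every pair numbered 4. As not every pair did, the numbers were not taken to pair the libraries, and 8 of 20 correlated best with their own number. With the replicate block, 4 members were called in β-Mfn1/2DKO against Ctrl (3 higher, median log2 fold change 1.90). Replicate 4 had the highest index of Ctrl, β-Mfn1KO and β-Mfn2KO (5.04, 3.15 and 6.17). By description 7 members departed from the common level, 9 with a prior count of 0.25 (with *Ctrc* and *Pla2g1b*), 6 with the mean as index and 6 to 7 leaving out 1 library. Depth limits *Cela3a*, *Ptf1a*, *Rbpjl*, *Ctrc*, *Pla2g1b* and *Prss1*, which had libraries at 0 counts.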
